A study of Canis lupus familiaris with 8 samples.

Results

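BAFF and APRIL are cytokines of the TNF family, and with the receptors TACI and the BAFF receptor they were followed here in blood cells of obese and normal dogs through 4 genes: TNFSF13B (BAFF), TNFSF13 (APRIL), TNFRSF13B (TACI) and TNFRSF13C (the BAFF receptor). The genes were chosen by symbol, and each symbol stood in 1 of the 35048 rows of every table. All 4 passed the filter on low counts, which kept 20632 rows. RNA of peripheral blood mononuclear cells (PBMCs), the lymphocytes and monocytes separated from blood, had been sequenced in 8 dogs. The 5 obese dogs were of different breeds: dog 1 was a Dachshund, dog 2 a Chihuahua, dogs 3 and 4 were Labrador retrievers, and dog 5 was a Welsh Corgi. The 3 normal dogs were all Beagles. No treatment or allele is named for either group. Because the obese group held no Beagle, body condition and breed cannot be told apart in any comparison.

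In humans and mice, BAFF and APRIL are made largely by monocytes, macrophages, dendritic cells and neutrophils, and they keep B lineage cells alive. BAFF binds the BAFF receptor, TACI and, weakly, BCMA (the product of TNFRSF17), whereas APRIL binds TACI and BCMA. The BAFF receptor is carried by mature B cells, TACI by activated and memory B cells, and BCMA by plasma cells, and the receptors signal through TRAF adaptors to the NF-κB transcription factors.

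The libraries were 3′ tag libraries, which sample each transcript close to its poly(A) tail, so levels are given as CPM (counts scaled to a common library size by the TMM method) and are not divided by gene length. Library totals ran from 10264202 to 14910982 counts. Markers of T cells, B cells and monocytes were present in every library, and so were markers of neutrophils, with summed levels of 391 to 8254 CPM in the obese dogs and 2095 to 8192 CPM in the normal dogs over the 11 of 12 listed markers that were tested. Obese dog 3 stood apart from the other obese dogs, with the highest neutrophil value of that group and 1185 CPM of erythroid markers, against 18.4 to 59.3 CPM in the other obese and 16.1 to 17.2 CPM in the normal dogs. Results are therefore also given without it where it changed them.

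Both ligands had higher mean levels in the obese dogs, and neither passed the threshold. TNFSF13B had 25.9, 20.8, 7.49, 12.5 and 17.4 CPM in obese dogs 1 to 5, against 10.3, 7.08 and 6.06 CPM in normal dogs 1 to 3. Obese dogs 1, 2, 4 and 5 lay above every normal dog, and obese dog 3 lay among the normal dogs, so the groups overlapped. The means were 16.8 ± 7.14 CPM in the obese dogs and 7.83 ± 2.23 CPM in the normal dogs (SD, n = 5 and n = 3). The log2 fold change of TNFSF13B, obese minus normal, was 1.10 with a 95% interval of 0.16 to 2.05 (standard error 0.43, adjusted p = 0.261, edgeR's quasi-likelihood test with Benjamini-Hochberg adjustment over all genes). A two-sided exact permutation test of the log2(CPM + 0.5) values gave p = 0.0714 for TNFSF13B, where the smallest p that the 56 splits allow is 0.0179. Without obese dog 3 the log2 fold change was 1.25 and passed the threshold (adjusted p = 0.0487, edgeR), in a fit in which 3.25% of all genes were called higher.

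TNFSF13 was the more abundant ligand transcript in all 8 libraries. It had 77.5, 45.1, 54.1, 62.3 and 58.7 CPM in obese dogs 1 to 5, against 51.7, 30.1 and 35.2 CPM in normal dogs 1 to 3. Normal dog 1 lay above obese dog 2, and apart from that pair every obese dog was higher than every normal dog. The means were 59.5 ± 11.9 CPM in the obese dogs and 39.0 ± 11.3 CPM in the normal dogs (SD, n = 5 and n = 3), a log2 fold change of 0.61 with a 95% interval of 0.01 to 1.21 (adjusted p = 0.312, edgeR). The exact two-sided permutation test gave p = 0.0536. TNFSF13 levels spread less between the obese dogs than those of TNFSF13B, with a coefficient of variation of 20.0% against 42.5%. TNFSF13B made up 12.2 to 31.6% of the ligand counts in the obese dogs, against 14.7 to 19.0% in the normal dogs. The lowest share in the obese group was that of dog 3 and the highest that of dog 2.

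Other transcripts moved in the same libraries as the ligands, and in bulk samples more cells of a type and more RNA per cell cannot be told apart. All 10 T cell markers, among them LEF1, BCL11B and CD5, had a positive fold change and none passed with edgeR, against 7 with DESeq2 and 10 with limma-voom, at summed levels of 435 to 1714 CPM in the obese dogs and 331 to 457 CPM in the normal dogs. All 6 platelet markers tested, among them PPBP and TUBB1, were positive and none passed with edgeR, against 5 with DESeq2 and 1 with limma-voom, at 64.7 to 1270 CPM in the obese dogs and 11.8 to 33.9 CPM in the normal dogs. GP1BB, also on the platelet list, was listed at 0 in every library. Obese dogs 1 and 2, which had the most TNFSF13B, also had the most platelet marker counts, at 1270 and 583 CPM. The 3 libraries with the highest neutrophil marker sums, obese dog 3 and normal dogs 2 and 3, had the 3 lowest TNFSF13B levels. Interferon induces BAFF in human and mouse myeloid cells, and all 18 interferon-stimulated genes tested had negative fold changes, of which edgeR called 0, DESeq2 15 and limma-voom 7. Their summed levels reached 412 to 946 CPM in the obese dogs, against 513, 6413 and 2030 CPM in normal dogs 1, 2 and 3. Dendritic cell markers, of which 8 of 10 were tested, had 4 positive and 4 negative fold changes, with sums of 160 to 382 CPM in the obese and 227 to 370 CPM in the normal dogs. Of 10 NK cell markers 8 were positive, and none of either list passed with edgeR, whereas DESeq2 called 2 dendritic cell markers and 1 NK cell marker higher. Over all genes tested, DESeq2 called 2.92% higher and 2.08% lower, and limma-voom 9.15% higher and 9.96% lower. The part of the listed transcripts in the ligand values was not tested.

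**Figure D1:**
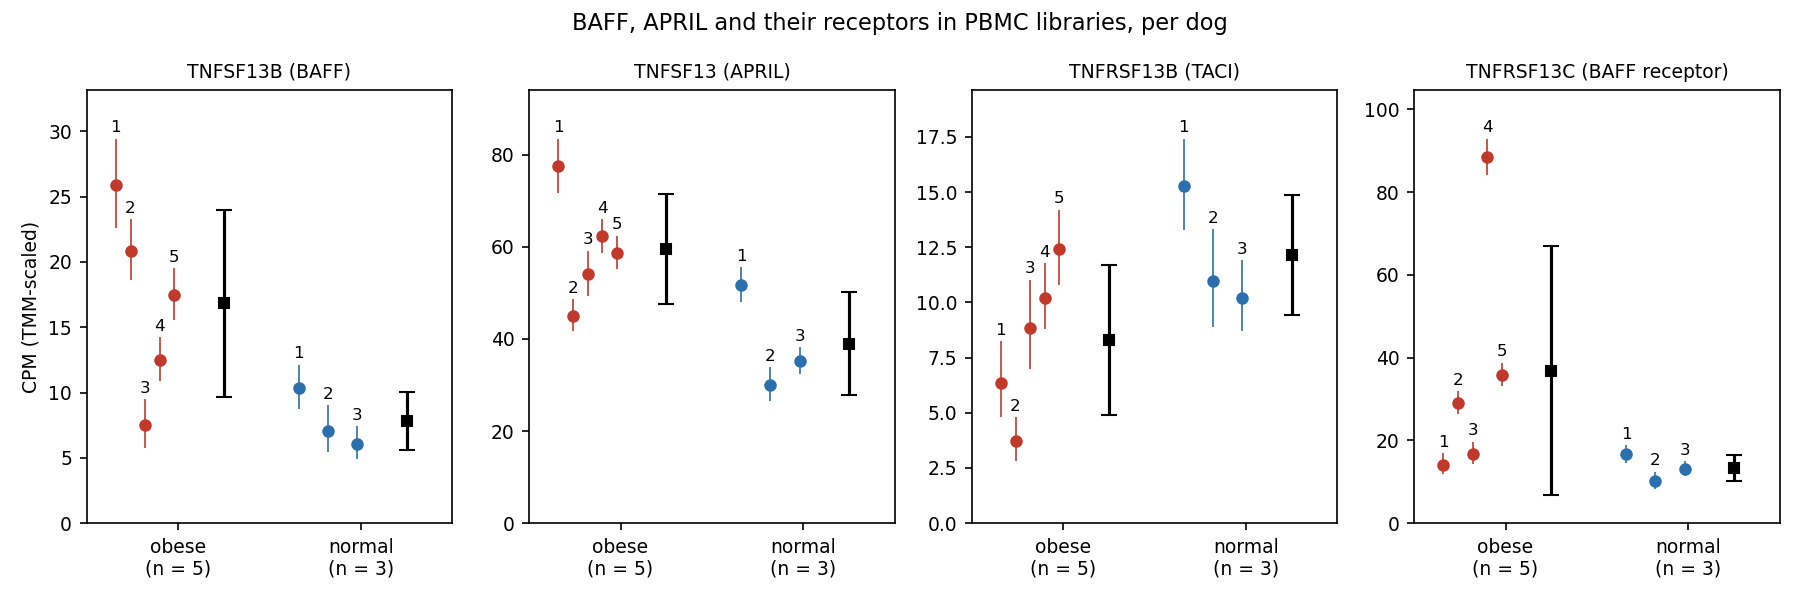
Level of each gene in CPM (linear axis from 0) in every library, obese dogs left and normal dogs right, labelled with the dog's number. Thin bars are exact Poisson 95% intervals of the count and cover counting error only, and black squares with bars are group means ± SD. Obese dog 4 stands at 88.5 CPM for TNFRSF13C, and the groups overlap in all 4 genes.

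The receptors differed from each other in direction. TNFRSF13C had 14.2, 29.2, 16.8, 88.5 and 35.9 CPM in obese dogs 1 to 5, against 16.7, 10.2 and 13.1 CPM in normal dogs 1 to 3. Obese dogs 2, 4 and 5 lay clearly above the normal dogs, obese dog 3 was level with normal dog 1, and obese dog 1 lay within the normal range. The 2 Labrador retrievers were far apart, with 1587 counts in obese dog 4 (88.5 CPM, Poisson 95% interval 84.2 to 93.0) and 148 counts in obese dog 3 (16.8 CPM, 14.2 to 19.7). The means were 36.9 ± 30.2 CPM in the obese dogs and 13.3 ± 3.24 CPM in the normal dogs (SD, n = 5 and n = 3). The log2 fold change of TNFRSF13C was 1.47 with a 95% interval of 0.18 to 2.76 (adjusted p = 0.269, edgeR), and the exact two-sided permutation test gave p = 0.0893. Without obese dog 4 it was 0.85 (adjusted p = 0.417, edgeR).

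TNFRSF13B pointed the other way. It had 6.35, 3.70, 8.85, 10.2 and 12.4 CPM in obese dogs 1 to 5, against 15.3, 11.0 and 10.2 CPM in normal dogs 1 to 3. Obese dogs 1, 2 and 3 lay below every normal dog, obese dog 4 was level with normal dog 3, and obese dog 5 lay within the normal range. The means were 8.31 ± 3.39 CPM in the obese dogs and 12.1 ± 2.73 CPM in the normal dogs (SD, n = 5 and n = 3). The log2 fold change of −0.55 had a 95% interval of −1.44 to 0.35, which includes no difference (adjusted p = 0.545, edgeR), and the exact two-sided permutation test gave p = 0.161. In the reference annotation the whole span of TNFRSF13B lies within that of USP22, which encodes a deubiquitinase and had 7834 counts over the 8 libraries, against 1062 for TNFRSF13B. Only gene spans were compared, and the strand setting of the counting is not stated in the sources. Whether reads of USP22 were counted for TNFRSF13B therefore cannot be told. The levels of the 2 genes had r = 0.441 over the 8 libraries (Pearson, descriptive). USP22 averaged 70.2 ± 26.8 CPM in the obese dogs and 67.7 ± 4.86 CPM in the normal dogs (SD, n = 5 and n = 3). No gene of the reference table overlaps any of the other 3.

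None of the 4 genes passed the threshold with edgeR, in a comparison in which 0.233% of all genes tested were called. With an unadjusted p under 0.05 there were 3, TNFSF13B, TNFSF13 and TNFRSF13C, where 15.7% of all genes had such a p. In 0 of the 4 genes were the groups free of overlap, against 10.9% of all genes. DESeq2 called 0 of the 4. A limma-voom fit that weights libraries by quality called the same 3 genes higher, in a fit that called 9.15% of all genes higher and gave obese dog 3 the lowest weight, 0.279, and normal dog 3 the highest, 3.54.

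The order of the levels differed between the groups. In the obese dogs the means ran from TNFSF13 through TNFRSF13C, TNFSF13B and TNFRSF13B down to TNFRSF17, and the ranges of neighbouring genes overlapped except for the last pair. In the normal dogs TNFSF13 was followed by TNFRSF17, TNFRSF13C, TNFRSF13B and TNFSF13B, and only TNFSF13 stood clear of the gene after it. TNFSF13 was the highest of these genes in 7 libraries, and in obese dog 4 it was second to TNFRSF13C. TNFSF13B was the lowest in each normal dog, and TNFRSF17 was the lowest in each obese dog.

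The make-up of the receptor transcripts is a measure within each library that library scaling does not touch. TNFRSF13C took 67.2, 87.8, 64.9, 88.8 and 72.6% of the counts of TNFRSF13B, TNFRSF13C and TNFRSF17 together in obese dogs 1 to 5, against 34.4, 33.8 and 32.6% in normal dogs 1 to 3. Every obese dog lay above every normal dog, and the normal dogs were within a few percentage points of each other. TNFRSF17 took 0.877 to 2.69% in the obese group, against 29.8 to 42.0% in the normal group. Behind the lowest of these shares stood 2 counts of 228 in obese dog 3 (exact Clopper-Pearson 95% interval 0.106 to 3.13%). TNFRSF13B took 10.2 to 34.2% in the obese dogs, against 25.4 to 36.4% in the normal group, and these ranges overlapped. The level of TNFRSF13C was 1.90 to 8.67 times that of TNFRSF13B in the obese dogs and 0.929 to 1.29 times in the normal dogs. These shares are a description without a test, and no matching value over all genes was computed. The shares of a library depend on each other, so a low TNFRSF17 share by itself raises those of the other receptors. Obese dogs 1 and 3 had 14.2 and 16.8 CPM of TNFRSF13C, against 10.2 to 16.7 CPM in the normal dogs. Summed over the 3 receptors, the level was 21.1 to 99.7 CPM in the obese dogs and 30.1 to 48.4 CPM in the normal dogs, so the totals overlapped while the shares of TNFRSF13C and TNFRSF17 did not.

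**Figure D2:**
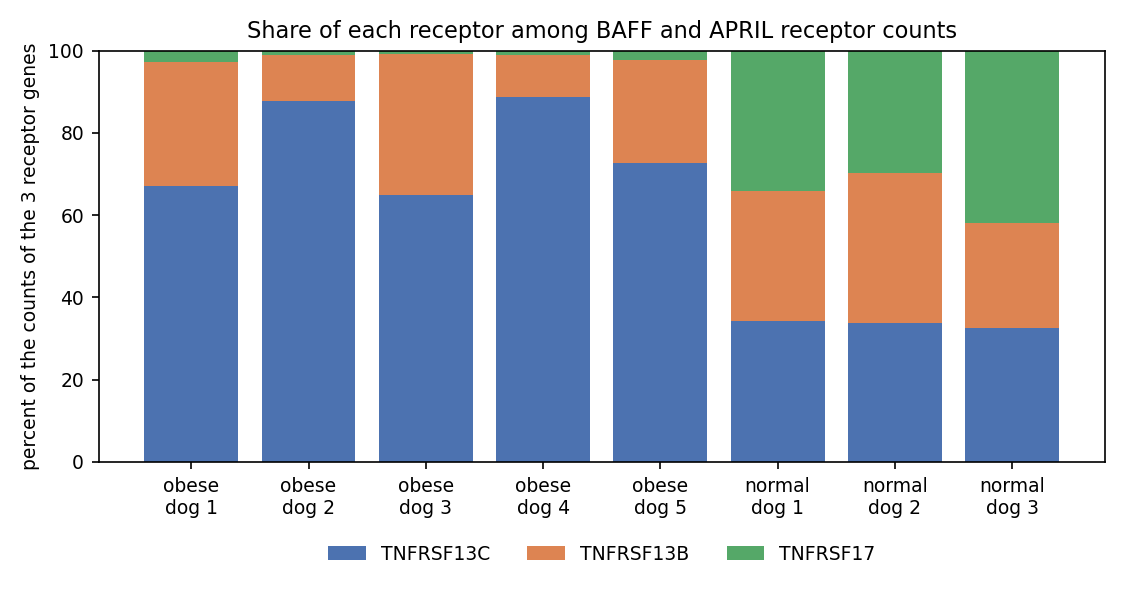
Percent of the counts of the 3 receptor genes taken by TNFRSF13C, TNFRSF13B and TNFRSF17 in each library, obese dogs left and normal dogs right. TNFRSF13C takes 64.9 to 88.8% in the obese group, against 32.6 to 34.4% in the normal dogs.

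TNFRSF17, which encodes the plasma cell receptor BCMA, was the 1 gene of the pathway list that fell with edgeR, with 0.227 to 1.11 CPM in the obese dogs and 8.96 to 16.9 CPM in the normal dogs (a log2 fold change of −4.39, 95% interval −5.58 to −3.20, adjusted p = 0.0228, edgeR), where 0.184% of all genes fell. The call was lost without obese dog 1 (adjusted p = 0.061), obese dog 2 (0.0748), obese dog 4 (0.0662), normal dog 1 (0.0514) or normal dog 3 (0.155), while the log2 fold change ran from −4.67 to −4.21 over the 8 fits that left out a dog (edgeR). Plasma cell markers were lower in the same libraries, with 8 of the 9 tested, TNFRSF17 among them, at negative fold changes. Their summed levels were 182 to 416 CPM in the obese dogs and 463 to 1284 CPM in the normal dogs. The only marker called lower with edgeR was TNFRSF17 itself. DESeq2 called 6 lower and limma-voom 7, TNFRSF17 among them each time, where these fits called 2.08% and 9.96% of all genes lower. SDC1 was below the filter, at 0 to 15 counts, and at 0 in obese dog 1. The part of plasma cell number in the TNFRSF17 value was not tested.

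The receptors were next set against B cell markers of the same library, and the ligands against monocyte markers, to see whether their levels followed those cells. For the receptors, 12 of 13 B cell markers could be used, with EBF1, BANK1 and FCER2 the most abundant. Of these markers 10 had a positive and 2 a negative fold change, none passed with edgeR, DESeq2 or limma-voom, none was at 0 in every library, and their summed level was 144 to 506 CPM in the obese dogs and 99.8 to 185 CPM in the normal dogs. The log2 fold changes of single B cell markers ran from −0.33 to 1.75 with a median of 0.80, against 1.47 for TNFRSF13C. The marker at 1.75 was scarce, with means of 1.61 CPM in the obese dogs and 0.46 CPM in the normal dogs, and FCER2 had 1.33. Obese dogs 4 and 5 had the highest B cell marker means and also the most TNFRSF13C.

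Relative to the mean of the B cell markers, TNFRSF13C was 1.15, 1.70, 1.38, 1.77 and 1.65 log2 units in obese dogs 1 to 5, against 0.84, 1.04 and 0.53 log2 units in normal dogs 1 to 3. Every obese dog lay above every normal dog, including obese dog 1, whose plain level did not, and obese dog 3, whose plain level was 16.8 CPM, against 16.7 CPM in normal dog 1. The mean difference was 0.73 log2 units (exact two-sided permutation p = 0.0179, the smallest possible, and 0.0357 adjusted over the 4 tests of this kind). Of all genes tested, 0.31% were free of overlap and higher by the same measure. With the summed CPM of the markers as the denominator the difference was 0.62 and the exact permutation p = 0.0714. Without obese dog 2, 3, 4 or 5 the difference was 0.67 to 0.76 and the exact permutation p = 0.0571. Fewer dogs leave fewer splits. Without obese dog 1 the difference was 0.82 and the exact permutation p = 0.0286, the smallest possible with an obese dog left out. TNFRSF13B relative to the same markers had −1.29 to 0.50 log2 units in the obese dogs and 0.18 to 1.14 log2 units in the normal dogs, with an overlap and a difference of −1.02 (exact permutation p = 0.107). In obese dogs 2 and 4 it was lowest, at −1.12 and −1.29 log2 units.

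**Figure D3:**
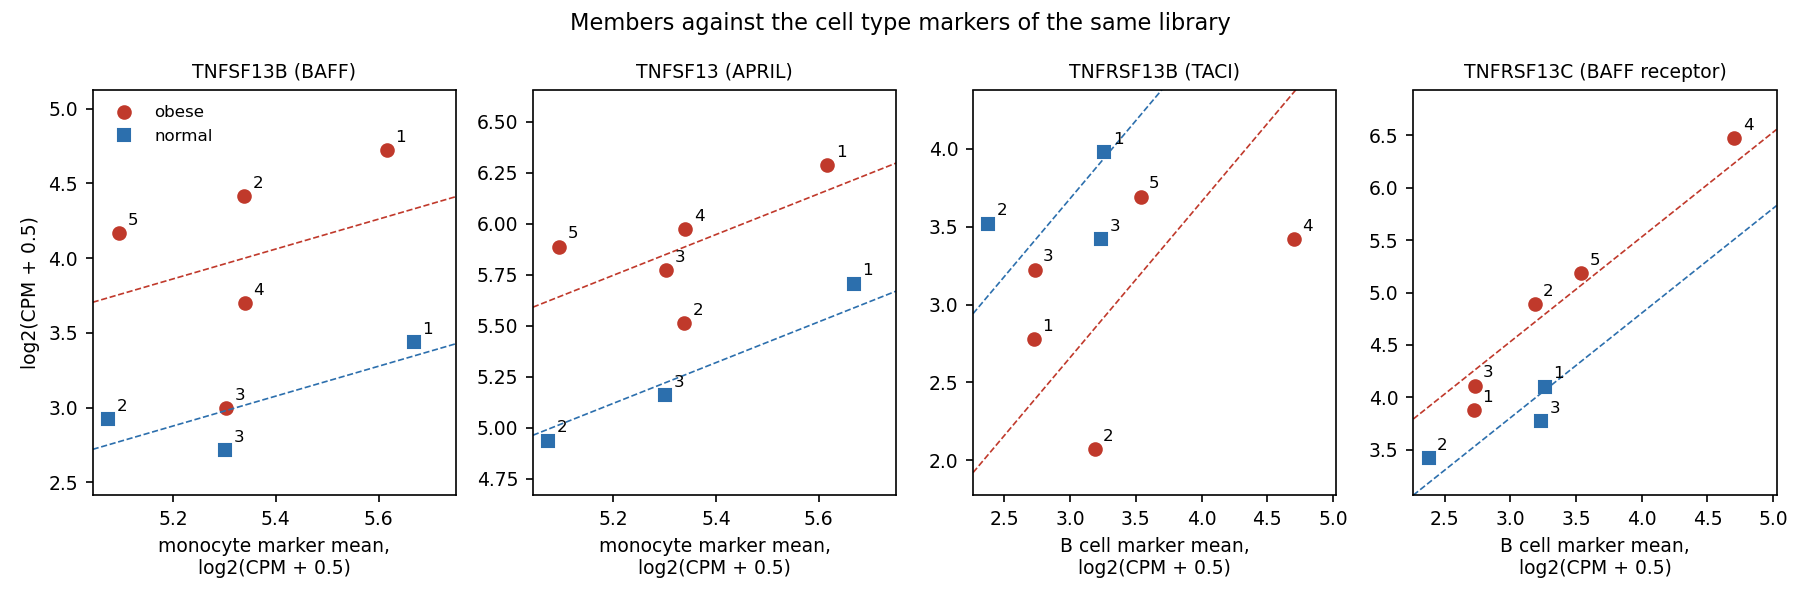
Level of each gene, as log2(CPM + 0.5), against the mean of the monocyte markers (ligands) or B cell markers (receptors) of the same library on the same scale. Red circles are obese and blue squares normal dogs, with their numbers, and a dashed line of slope 1 runs through each group's mean ratio. For TNFRSF13C the obese dogs lie 0.73 log2 units above the normal dogs on average.

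The 12 monocyte markers, among them VCAN and SPI1, had 9 positive and 3 negative fold changes, with no member past the threshold with edgeR, 1 with DESeq2 and 3 with limma-voom, and none at 0 in every library. Their summed level was 1139 to 2386 CPM in the obese dogs and 1949 to 3424 CPM in the normal dogs. Relative to the mean of these markers, TNFSF13 was 0.67, 0.17, 0.47, 0.63 and 0.79 log2 units in obese dogs 1 to 5, against 0.04, −0.14 and −0.14 log2 units in normal dogs 1 to 3. The groups did not overlap, with the nearest values in obese dog 2 and normal dog 1, and 5.95% of all genes tested were free of overlap and higher by this measure. The difference of 0.63 log2 units gave an exact two-sided permutation p = 0.0179 (0.0357 adjusted over the 4 tests). With the summed CPM of the markers as the denominator it was 1.40. VCAN made up much of that sum in the normal dogs and was lower in every obese dog than in any normal dog. Without obese dog 1, 3, 4 or 5 the difference relative to the marker mean was 0.57 to 0.65, each time with an exact permutation p = 0.0571. Without obese dog 2 it was 0.72 with an exact permutation p = 0.0286, the smallest possible with an obese dog left out. TNFSF13B relative to monocyte markers had −2.31 to −0.90 log2 units in the obese dogs and −2.59 to −2.15 log2 units in the normal dogs. Obese dog 3 lay within the normal range, and the difference of 0.98 log2 units gave an exact permutation p = 0.0714. Over the 8 libraries the mean of the monocyte markers had r = 0.520 with TNFSF13 and 0.319 with TNFSF13B (Pearson, descriptive). The T cell mean had 0.665 and 0.876 with them, and the platelet mean 0.657 and 0.868.

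Of the other genes listed around these ligands and receptors, 1 passed the threshold with edgeR, 4 with DESeq2 and 10 with limma-voom, TNFRSF17 among them each time. The 1 gene called with edgeR, TNFRSF17, is itself a receptor gene. Over all genes, DESeq2 called 2.92% higher and 2.08% lower, and limma-voom 9.15% higher and 9.96% lower. The list held 32 genes, of which 31 were tested and IKBKG was not analysed here. With edgeR none rose, where 0.0485% of all genes did, and TNFRSF17 fell, 20 had a positive and 11 a negative fold change, and the median log2 fold change was 0.06, against 0.09 over all genes tested. TNFSF12, which encodes the cytokine TWEAK and lies next to TNFSF13, had levels of 0.859 to 4.88 CPM in the obese dogs, against 0.773 to 1.91 CPM in the normal dogs. FURIN, a protease that cuts both ligands from their precursors, had 105 ± 44.3 CPM in the obese dogs and 113 ± 47.6 CPM in the normal dogs (SD, n = 5 and n = 3).

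Proteases that shed the receptors went in both directions, and none of 6 passed with edgeR or DESeq2. The limma-voom fit called ADAM17 lower (adjusted p = 0.0176) and NCSTN (0.0441) and APH1A (0.0336), another subunit of γ-secretase, higher, where it called 9.96% of all genes lower and 9.15% higher. ADAM17, a sheddase of many membrane proteins, had a log2 fold change of −0.62 (95% interval −1.18 to −0.06, adjusted p = 0.279, edgeR). NCSTN, a subunit of γ-secretase, which cleaves BCMA, had levels of 35.7 to 56.7 CPM in the obese dogs, against 28.3 to 33.8 CPM in the normal dogs, without overlap (adjusted p = 0.332, edgeR). Among 8 adaptors and ubiquitin ligases, 6 had a positive fold change and none passed with edgeR or DESeq2. The limma-voom fit called TRAF2 (adjusted p = 0.0396), TRAF5 (0.0109) and CAMLG (0.0345) higher. TRAF5, an adaptor of the TNF receptor family, had 12.6, 19.0, 7.26, 24.4 and 47.9 CPM in obese dogs 1 to 5, against 6.54, 9.96 and 6.63 CPM in normal dogs 1 to 3 (log2 fold change 1.53, adjusted p = 0.243, edgeR). CAMLG, a partner of TACI, had 4.46 ± 1.23 CPM in the obese dogs and 2.52 ± 0.598 CPM in the normal dogs (SD, n = 5 and n = 3).

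None of the 3 kinases and 5 NF-κB subunits tested passed with edgeR, DESeq2 or limma-voom. MAP3K14, the kinase NIK that the BAFF receptor releases from degradation, had 115 ± 50.7 CPM in the obese dogs and 67.0 ± 10.6 CPM in the normal dogs (SD, n = 5 and n = 3; adjusted p = 0.331, edgeR). CHUK, the kinase IKKα that acts after NIK, had a log2 fold change of 0.06 with a 95% interval of −0.57 to 0.69. NFKB2, whose product NIK and IKKα process, had a log2 fold change of 0.45 (95% interval −0.17 to 1.06), but it overlaps PSD in the reference annotation. MAP3K14 and CHUK overlap uncharacterised genes, which had 3974 counts against 10772 for MAP3K14 and 557 against 2812 for CHUK. RELA had a log2 fold change of 0.32, and an uncharacterised gene that overlaps it had nearly parallel counts (r = 0.999 over 8 libraries, descriptive).

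None of the 6 survival genes passed with edgeR, where BCL2 and MCL1 had the smallest p-values of the list after TNFRSF17. DESeq2 called BCL2 higher (adjusted p = 0.000986) and BCL2L1 (0.0289) and MCL1 (0.0168) lower, in a fit that called 2.92% of all genes higher and 2.08% lower. The limma-voom fit called the same 3 genes in the same directions (adjusted p = 0.00163, 0.00426 and 0.00659). BCL2, which protects resting lymphocytes from death, had 463, 219, 154, 334 and 549 CPM in obese dogs 1 to 5, against 95.4, 103 and 66.5 CPM in normal dogs 1 to 3. Every obese dog was higher than every normal dog, at a log2 fold change of 1.96 (95% interval 1.00 to 2.92, adjusted p = 0.0983, edgeR). MCL1, a family member that plasma cells depend on downstream of BCMA in mice, had 65.9, 79.9, 91.4, 70.5 and 74.3 CPM in obese dogs 1 to 5, against 105, 211 and 159 CPM in normal dogs 1 to 3, again without overlap. Its log2 fold change was −1.05 (95% interval −1.61 to −0.49, adjusted p = 0.113, edgeR). BCL2 and MCL1 are expressed in most blood cells, so these values are not readings of B lineage cells alone, and the T cell markers of the same libraries summed to 435 to 1714 CPM in the obese dogs, against 331 to 457 CPM in the normal dogs. The part of T cell number in the BCL2 value was not tested. Without obese dog 3, TRAF5 and BCL2 were called higher (adjusted p = 0.0415 and 0.00679) and TNFRSF17, BCL2L1 and MCL1 lower (edgeR), in a fit that called 3.25% of all genes higher and 5.03% lower. BCL2L1, APH1A and TRAF2 are named because their calls were seen. Over the whole list, 2 genes were higher and 2 lower without overlap, where 5.75% of all genes were higher and 5.16% lower.

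**Figure D4:**
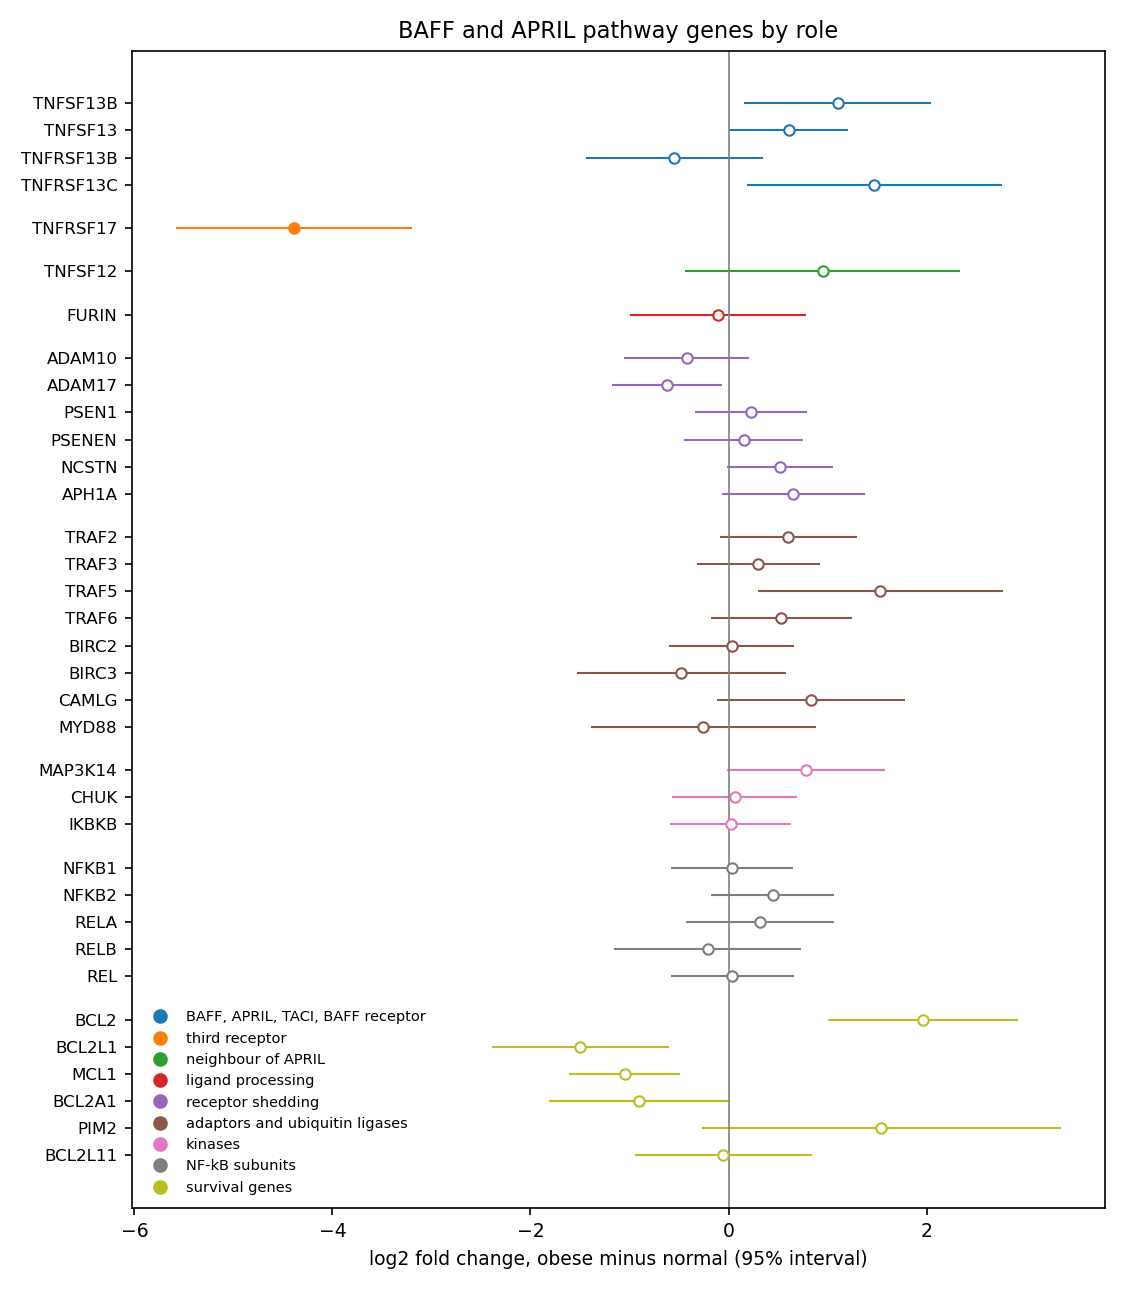
Log2 fold change (obese minus normal) with its 95% interval from the edgeR fit for the 4 genes and the 31 tested genes of the pathway list, coloured by role. Filled points passed an adjusted p of 0.05 in that fit and open points did not. TNFRSF17, at −4.39, is the 1 filled point.

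The genes whose levels followed each member most closely over the 8 dogs were found by Pearson's r on log2(CPM + 0.5), as a description over libraries that share group and cell make-up. TNFSF13B was most like ZBTB20 (r = 0.988), a transcriptional repressor, ESYT1 (r = 0.985), a membrane tether, SFMBT2 (r = 0.975), SMIM20 (r = 0.974) and RTL6 (r = 0.973). TNFSF13 was most like ALDH3B1 (r = 0.976), an aldehyde dehydrogenase, GTF3C5 (r = 0.975), GPS1 (r = 0.968), CCDC127 (r = 0.965) and BPI (r = 0.963), a bactericidal protein of neutrophil granules. TNFRSF13C was most like QSOX2 (r = 0.961), SBF1 (r = 0.958), TBX21 (r = 0.951), the factor T-bet of T, NK and some B cells, ZNF570 (r = 0.950) and the mannose receptor MRC1 (r = 0.947). The closest genes to TNFRSF13B were less like it, with WDR64 (r = 0.937), MTRF1 (r = 0.923), SSR1 (r = 0.913), RANBP9 (r = 0.910) and MYOF (r = 0.909). No B cell marker of the list was among these 20 genes, but the mean of the B cell markers had r = 0.918 with TNFRSF13C, against 0.166 with TNFRSF13B. Although BPI was close to TNFSF13, the mean of the neutrophil markers had r = −0.478 with it. MRC1 is also on the monocyte list, whose mean had r = −0.094 with TNFRSF13C.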

How the data were processed

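The deposited data were count tables, 1 for each dog, holding unnormalized whole-number counts by gene symbol as the authors made them. Per the labels' protocols, Trizol was used for extraction and QuantSeq (Lexogen) libraries were built from 500 ng of RNA. The submitters' processing notes name Bowtie2 and bedtools. The sources used here do not state versions, genome build, annotation or use of strand. Groups came from the labels, which name each library as a separate dog, and every pair of libraries differed by more than sampling noise (lowest chi-square per degree of freedom 35.9).

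Tests were run with edgeR 4.0.16 in R 4.3.3 (filterByExpr by group, TMM, robust glmQLFit, glmQLFTest), adjusted over 20632 genes at 0.05. The row with the highest mean kept a repeated symbol. Standard errors were taken from the log2 fold change and its F statistic, and 95% intervals from these and the t distribution. Single values were tested by exact permutation over all 56 splits of the dogs. Intervals of counts cover counting error only. Alternatives used DESeq2 1.42.0 and limma 3.58.1. The test was first run on simulated counts with known changes. The table UU_Cfam_GSD_1.0 of RefSeq served for gene overlaps only, and no sequences are shown.

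The members and lists were chosen with earlier results of these data known. Genes named were the members, TNFRSF17, pathway genes past the threshold and up to 2 per role with the smallest p, up to 3 of the most abundant markers per list, and the 5 most alike genes with at least 5 CPM, a characterised name and no overlap. GP1BB, SDC1, USP22 and IKBKG were named after their values were seen, and a monocyte marker is not reported here by name. Same-numbered dogs of the groups are different animals, and the labels name no pairing of them.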

Additional observations from a re-analysis of the deposited data

How the results depend on the processing

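The direction of TNFSF13B, TNFSF13, TNFRSF13B and TNFRSF13C held under all 16 alternatives of the edgeR comparison, which covered scaling, filter, tool, repeated symbols, the replicate block and leaving out each dog. With limma-voom and quality weights TNFSF13B (1.22), TNFSF13 (0.66) and TNFRSF13C (1.65, all log2) passed the threshold, and TNFSF13B also passed without obese dog 3. When 1 dog was left out, the log2 fold change of TNFSF13B ran from 0.90 to 1.37. The 48 genes called became 7 (0 higher, 7 lower) with library totals, 1031 (602 higher, 429 lower) with DESeq2, 3942 (1887 higher, 2055 lower) with limma-voom and 2 to 1684 when 1 dog was left out. Of the pathway list 1 gene was called, against 0 with library totals, 4 with DESeq2, 10 with limma-voom and 0 to 5 when 1 dog was left out. The replicate block over dogs 1 to 3 of each group called 0 genes and 0 of the list. Its log2 fold changes were 1.06 for TNFSF13B, 0.59 for TNFSF13, −1.02 for TNFRSF13B and 0.53 for TNFRSF13C. The correlation of the deviations of same-numbered dogs was −0.024, −0.231 and 0.008, which showed no likeness within these pairs. So few pairs cannot tell whether same-numbered libraries were handled together. TNFRSF13C relative to B cell markers was 0.62 with summed markers (exact permutation p = 0.0714) and 0.59 to 0.84 when 1 dog was left out, and TNFSF13 relative to monocyte markers was 0.57 to 0.72 when 1 dog was left out. The exact permutation p for each of these ratios was 0.0571 without 4 of the obese dogs, taken 1 at a time. With a dog left out there are fewer splits, so the smallest possible p is larger than with all 8 dogs. The cause of these changes was not tested. No member, ratio or share among the obese dogs passed Dixon's test for a dog far from the others, but TNFRSF13C missed it narrowly, with a ratio of gap to range of 0.708 for obese dog 4 against a critical value of 0.71, and without that dog its log2 fold change was 0.85. Counts of 2 to 19 behind TNFRSF17 in the obese dogs limit its precision.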
